A study of Homo sapiens with 8 samples.

Results

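The insulin-like growth factor (IGF) genes described here are 6 IGF binding proteins (IGFBP2, IGFBP3, IGFBP4, IGFBP5, IGFBP6 and IGFBP7), the receptors IGF1R, IGF2R and INSR, and IRS1, the adaptor that docks on activated receptors. They were chosen by gene name and are 10 of the 25369 genes measured. RNA sequencing was done on telomerase-immortalized human esophageal keratinocytes, the line EPC2-hTERT, labelled wild type and grown at an air-liquid interface, where the cells stratify as the esophageal lining does. The study asked how expression changes in this epithelium when prolyl hydroxylases are blocked, against a background of interest in HIF and eosinophilic esophagitis. There were 4 libraries of cells given 1 mM dimethyloxalylglycine (DMOG) and 4 of cells given DMSO vehicle, each for 18 h before harvest. All cultures shared 1 cell line and the same medium, with 5 days in 1.8 mM calcium chloride and 4 days of exposure to air. DMOG is a cell-permeable 2-oxoglutarate analog that inhibits the prolyl hydroxylases that mark HIF alpha subunits for degradation, and it also acts on other enzymes that use 2-oxoglutarate.

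IGF1 and IGF2 are secreted growth factors that signal through the tyrosine kinase IGF1R and, for IGF2, an isoform of the insulin receptor INSR. The receptors phosphorylate IRS adaptors, which recruit PI3 kinase and activate AKT. IGF binding proteins hold the ligands outside the cell and can limit or prolong their action, while IGF2R takes up IGF2 for degradation and also carries mannose 6-phosphate tagged enzymes to lysosomes. In stratified epithelia IGF signalling is known mainly for the growth and survival of keratinocytes, and IGFBP3 is a known hypoxia-induced gene.

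Values are RPKM, reads scaled to gene length and to the library's total, as deposited. The library totals used in that scaling, recovered from the values, were 31245695 to 39931833 reads. All 8 markers of basal and all 9 of suprabasal esophageal keratinocytes were at 1 RPKM or more. One library stood apart from its label: on the first principal component, which held 65.5% of the variance, the library labelled DMOG replicate 2 lay at -17.0, close to the vehicle libraries at -23.4 to -21.2, while DMOG replicates 1, 3 and 4 lay at 14.9 to 56.2. The HIF-induced carbonic anhydrase gene CA9 stood at 25.2, 2.56, 9.97 and 57.5 RPKM in DMOG replicates 1 to 4, against 0.925, 1.29, 0.129 and 0.586 RPKM in vehicle replicates 1 to 4. The changes of the IGF genes are therefore given over all 8 libraries, with RPKM as deposited, and over 6 (replicates 1, 3 and 4 of each group), the libraries that the authors' own comparison rests on, with RPKM scaled by median-ratio factors. A gene is called changed where limma's adjusted p over all 11122 genes tested was under 0.05. Tested genes had 1 RPKM or more in at least 4 libraries, which 7 of the 10 IGF genes did. INSR, IGFBP2 and IGFBP5 did not. Fold changes are DMOG minus vehicle on the log2(RPKM + 1) scale, which understates changes of low genes.

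Over 6 libraries IGFBP3 and IGF1R were called higher with DMOG and IGF2R and IRS1 were called lower, while IGFBP4, IGFBP6 and IGFBP7 were not called. Of all genes tested, 29.8% were called in that comparison, 13.7% higher and 16.1% lower. Over all 8 libraries no IGF gene was called, nor was any other gene tested (0% called by limma-trend, and 0 by limma-voom on recovered reads), although without adjustment 665 genes stood higher and 3243 lower at p under 0.05. Without DMOG replicate 2, 2 IGF genes were called higher and 3 lower (IGFBP7 joined IGF2R and IRS1), with 38.9% of all genes called. That fit used RPKM as deposited, and most of its calls were lower (747 genes higher and 3585 lower, with a median log2 fold change of -0.23).

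The promoters of the 4 genes called over 6 libraries are shown because DMOG stabilizes HIF, whose binding sites share the core ACGTG or GCGTG. The RefSeq windows (GRCh38.p14) run from 250 bases before to 50 after the gene's start, 5′ to 3′ on the gene's strand. Capitals mark ACGTG or GCGTG on either strand (read as CACGT or CACGC on the other), with overlapping matches joined. The windows are chr7:45921223-45921522 (minus strand) for IGFBP3, chr15:98648289-98648588 (plus) for IGF1R, chr6:159968832-159969131 (plus) for IGF2R and chr2:226799771-226800070 (minus) for IRS1.
IGFBP3: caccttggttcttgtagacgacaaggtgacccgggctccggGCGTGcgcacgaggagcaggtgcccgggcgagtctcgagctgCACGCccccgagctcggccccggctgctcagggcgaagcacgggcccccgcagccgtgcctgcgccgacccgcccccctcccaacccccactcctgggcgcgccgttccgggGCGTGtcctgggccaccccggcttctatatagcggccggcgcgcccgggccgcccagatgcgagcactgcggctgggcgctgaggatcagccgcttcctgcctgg
IGF1R: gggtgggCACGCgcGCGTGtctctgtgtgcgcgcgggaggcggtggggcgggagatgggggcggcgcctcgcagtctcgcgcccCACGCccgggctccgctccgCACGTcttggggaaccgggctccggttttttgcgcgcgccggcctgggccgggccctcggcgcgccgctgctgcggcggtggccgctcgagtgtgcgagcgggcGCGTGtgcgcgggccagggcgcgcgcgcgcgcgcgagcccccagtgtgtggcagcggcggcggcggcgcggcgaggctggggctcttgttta
IGF2R: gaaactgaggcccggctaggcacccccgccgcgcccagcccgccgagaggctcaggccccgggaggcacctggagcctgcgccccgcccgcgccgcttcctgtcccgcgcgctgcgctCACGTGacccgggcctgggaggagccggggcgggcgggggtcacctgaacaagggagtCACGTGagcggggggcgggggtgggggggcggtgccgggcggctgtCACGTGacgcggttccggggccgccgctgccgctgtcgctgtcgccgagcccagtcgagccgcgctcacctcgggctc
IRS1: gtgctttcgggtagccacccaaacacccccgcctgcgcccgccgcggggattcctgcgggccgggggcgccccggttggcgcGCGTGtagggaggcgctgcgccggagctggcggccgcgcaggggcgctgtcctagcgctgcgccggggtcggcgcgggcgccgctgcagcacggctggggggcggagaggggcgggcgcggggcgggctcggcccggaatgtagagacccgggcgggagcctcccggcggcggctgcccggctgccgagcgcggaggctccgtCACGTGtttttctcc

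IGF1R held 5 matches, IGFBP3 and IGF2R 3 each, and IRS1 2, so matches were present upstream of genes called in either direction. In IGF2R each match was the palindrome CACGTG. Of 35116 RefSeq promoter windows of the same length, 48.4% held at least 1 match, 20.0% at least 2, 7.54% at least 3 and 0.994% at least 5. These shares cover windows of any G and C content. That content was 74.7% for IGFBP3, 79.7% for IGF1R, 78.7% for IGF2R and 79.3% for IRS1. Shares among windows of like content were not counted. The windows of IGFBP4, IGFBP5, IGFBP6 and INSR held none, and 2 of the 3 windows of IGFBP2 held 1 each. A match describes these letters and no measured binding.

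**Figure D1:**
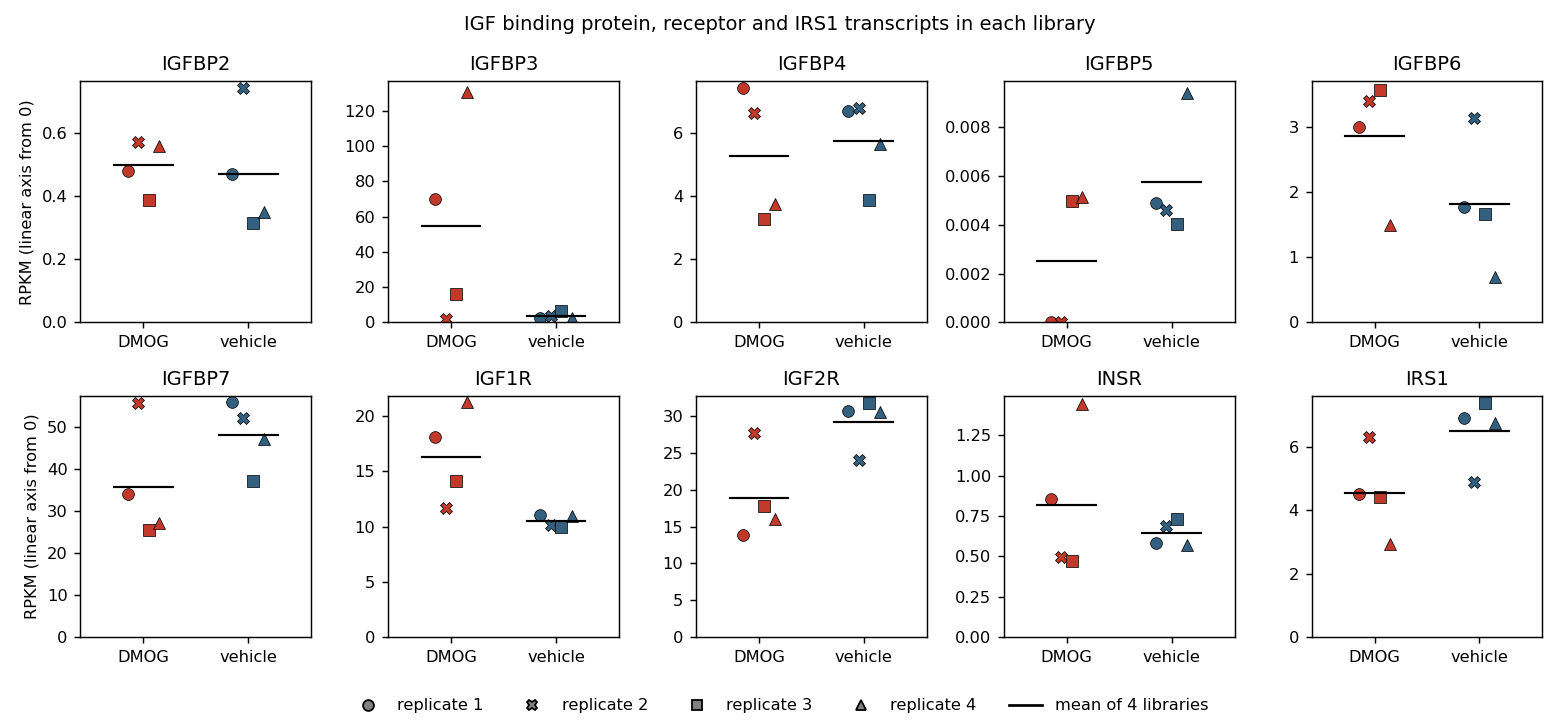
RPKM of each IGF gene in each library, on linear axes from 0 with a separate scale for each gene. DMOG libraries (red) stand left of vehicle libraries (blue), marker shapes give the replicate number and lines give the mean of 4 libraries. IGF1R is higher in each DMOG library than in any vehicle library, and the cross that marks DMOG replicate 2 lies among or near the vehicle libraries for IGFBP3, IGFBP7, IGF2R and IRS1.

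IGFBP3, the main carrier of IGFs in serum, showed the largest change of the IGF genes tested. The gene lies on chromosome 7, 45951844 to 45960871 on the minus strand (hg19, as are the positions below). Its level was 69.8, 2.15, 16.2 and 131 RPKM in DMOG replicates 1 to 4, against 2.58, 3.50, 6.36 and 2.34 RPKM in vehicle replicates 1 to 4. DMOG replicates 1, 3 and 4 were far above every vehicle library, while DMOG replicate 2 was the lowest of all, so the groups overlap over 8 libraries and not over 6. Over 6 libraries the mean was 72.2 ± 57.2 RPKM with DMOG and 3.76 ± 2.25 RPKM with vehicle (SD, n = 3 each), and the log2 fold change was 3.87 ± 0.74 (SE, adjusted p = 0.0125). Over 8 libraries the log2 fold change was 2.58 ± 0.98 (adjusted p = 0.107). The 6-library call was lost without DMOG replicate 1 (adjusted p = 0.0540), vehicle replicate 1 (0.0540) or vehicle replicate 4 (0.0520). In the authors' deposited table IGFBP3 had a log2 fold change of 4.59 and an adjusted p of 1.38e-05. Of the 13424 genes in the authors' deposited table, 36.4% had an adjusted p under 0.05, 18.8% higher and 17.6% lower.

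IGFBP7, which binds IGFs weakly and is also known as a vascular and stromal matrix protein, was the most abundant binding protein transcript in vehicle cultures. Its level was 34.0, 55.8, 25.5 and 27.1 RPKM with DMOG, against 55.9, 52.0, 37.0 and 47.2 RPKM with vehicle. DMOG replicates 1, 3 and 4 were each below every vehicle library and DMOG replicate 2 was not. The log2 fold change was -0.37 ± 0.17 over 6 libraries (adjusted p = 0.132) and -0.47 ± 0.24 over 8 (adjusted p = 0.185). With the replicate number as a block, where 40.6% of all genes tested were called, the adjusted p was 0.0234. With RPKM as deposited, without median-ratio scaling, the log2 fold change was -0.67 (adjusted p = 0.0238), and 6.13% of all genes tested were called higher and 34.5% lower. IGFBP7 overlaps the opposite-strand gene IGFBP7-AS1 over 624 bases and POLR2B over 98 bases, so its value is uncertain where counting ignored strand, on which the sources used here are silent.

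IGFBP6, which prefers IGF2 over IGF1, was listed at 3.0, 3.39, 3.55 and 1.49 RPKM with DMOG, against 1.77, 3.12, 1.66 and 0.699 RPKM with vehicle. At each replicate number the DMOG library was the higher, but the groups overlap, and the share of all genes with this order was not counted. Its log2 fold change over 6 libraries was 0.80 ± 0.27 (adjusted p = 0.0594), with an adjusted p of 0.00870 when the replicate number was a block and 0.0232 without DMOG replicate 4. Over 8 libraries it was 0.49 (adjusted p = 0.237). The authors' deposited table lists IGFBP6 at a log2 fold change of 1.24 and an adjusted p of 0.0304. These values rest on 45 to 112 reads per library with DMOG and 23 to 105 with vehicle.

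IGFBP4, a soluble binding protein that limits IGF action until cleaved by the protease PAPPA, was listed at 7.42, 6.62, 3.26 and 3.75 RPKM with DMOG, against 6.69, 6.79, 3.88 and 5.63 RPKM with vehicle. The groups overlapped widely. The log2 fold change was 0.07 ± 0.28 over 6 libraries (adjusted p = 0.860) and -0.14 over 8 (adjusted p = 0.702), and its sign also turned with the scaling, to -0.18 over 6 libraries with RPKM as deposited and 0.03 over 8 with median-ratio factors.

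IGFBP2 and IGFBP5 were low. IGFBP2, a binding protein that carries an integrin-binding motif, was listed at 0.481, 0.573, 0.390 and 0.560 RPKM with DMOG, against 0.471, 0.744, 0.315 and 0.349 RPKM with vehicle, from 18 to 28 reads per library with DMOG and 17 to 37 with vehicle. The groups overlap, and limma-voom on recovered reads, which could test it, gave a log2 fold change of 0.64 ± 0.34 over 6 libraries (adjusted p = 0.192, with 26.6% of 13605 genes called) and 0.17 ± 0.35 over 8 (adjusted p = 0.763). IGFBP5, which binds extracellular matrix, had 0 to 1 reads per library with DMOG and 1 to 2 with vehicle, all within the 3 reads that a count of 0 allows, so no fold is given. In the genome IGFBP2 and IGFBP5 lie tail to tail on chromosome 2, 7669 bases apart, and IGFBP1 and IGFBP3 lie likewise on chromosome 7, 18576 bases apart. IGFBP1, a further hypoxia-inducible binding protein best known from liver, was listed at 0 in all 8 libraries beside the high IGFBP3.

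The make-up of the binding protein transcripts differed accordingly. IGFBP3 was 60.8, 3.13, 33.1 and 79.9% of the summed RPKM of IGFBP2 to IGFBP7 in DMOG replicates 1 to 4, against 3.83, 5.28, 12.9 and 4.17% in vehicle replicates 1 to 4. The sum itself was 115, 68.5, 48.9 and 163 RPKM with DMOG, against 67.4, 66.2, 49.3 and 56.2 RPKM with vehicle. In DMOG replicate 3 the sum was thus as low as in the lowest vehicle library, although IGFBP3 had a larger share there than in any vehicle library. Without IGFBP3 the sum was 44.9, 66.4, 32.7 and 32.9 RPKM with DMOG, against 64.8, 62.7, 42.9 and 53.9 RPKM with vehicle. IGFBP7 was 16.6 to 81.4% of the sum with DMOG and 75.2 to 83.9% with vehicle. The mean IGFBP3 share over 8 libraries was 44.2 ± 33.4% with DMOG and 6.55 ± 4.29% with vehicle (SD, n = 4 each, exact two-sided permutation p = 0.143). Over 6 libraries it was 57.9 ± 23.5% with DMOG and 6.97 ± 5.15% with vehicle (n = 3 each, exact permutation p = 0.1, the smallest that 3 against 3 can give).

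**Figure D2:**
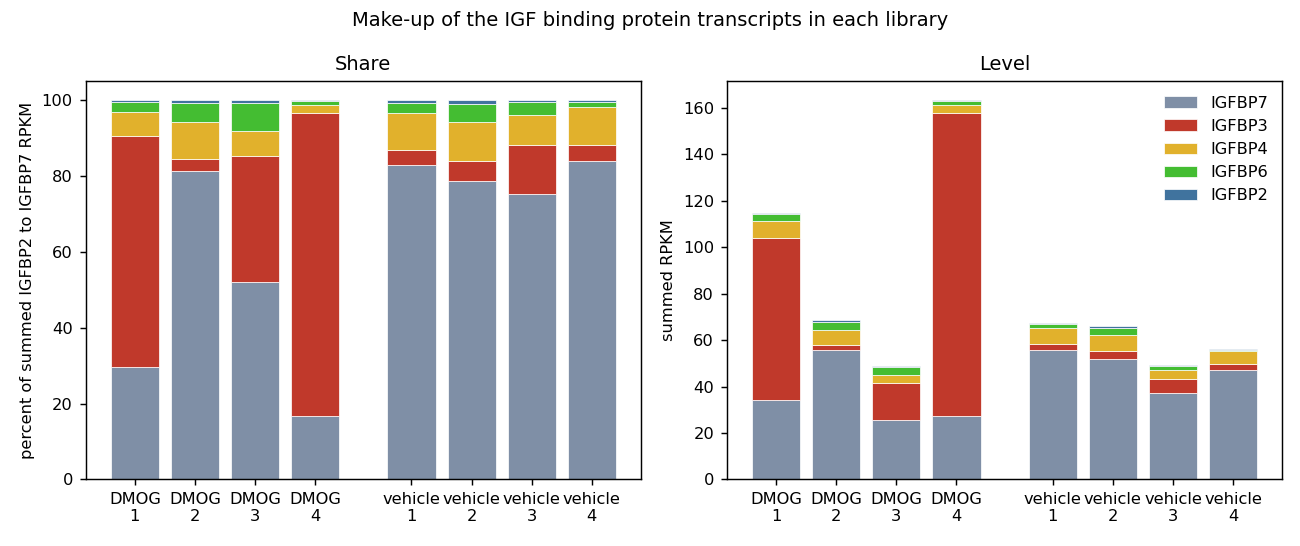
Stacked bars of IGF binding protein transcripts in each library, DMOG libraries left of vehicle libraries, as percent of the summed IGFBP2 to IGFBP7 RPKM (left panel) and as RPKM (right panel). IGFBP3 (red) is 33.1 to 79.9% of the sum in DMOG replicates 1, 3 and 4 and 3.13 to 12.9% in the other 5 libraries. IGFBP5 is too low to be seen.

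Among the receptors, IGF1R, the main signalling receptor for both IGFs, was the only IGF gene of the 7 tested whose DMOG libraries all lay above all vehicle libraries. It lies on chromosome 15, 99191768 to 99507759 on the plus strand. Its level was 18.1, 11.7, 14.1 and 21.2 RPKM with DMOG, against 11.1, 10.1, 9.94 and 10.96 RPKM with vehicle. DMOG replicate 2 was the lowest DMOG library but still above the highest vehicle library, an order over 8 libraries that 2.27% of all genes tested shared. No IGF gene tested had all DMOG libraries below all vehicle libraries, as 12.8% of all genes tested did. Over 6 libraries the mean was 17.8 ± 3.56 RPKM with DMOG and 10.7 ± 0.616 RPKM with vehicle (SD, n = 3 each). The log2 fold change was 0.96 ± 0.17 after median-ratio scaling (adjusted p = 0.0108). The call held in all 14 alternatives to that fit, with adjusted p of 0.00207 to 0.0488. Among them, RPKM as deposited gave a smaller log2 fold change of 0.675 (adjusted p = 0.0144). Over 8 libraries the log2 fold change was 0.55 ± 0.17 (adjusted p = 0.0879). The authors' deposited table gives a log2 fold change of 1.06 and an adjusted p of 6.93e-06.

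IGF2R, the scavenger of IGF2 and carrier of lysosomal enzymes, moved the other way. The gene lies on chromosome 6, 160390131 to 160527583 on the plus strand, and overlaps the antisense gene AIRN, listed at 0 in every library. Its level was 13.8, 27.7, 17.8 and 16.1 RPKM with DMOG, against 30.6, 24.0, 31.8 and 30.5 RPKM with vehicle. DMOG replicates 1, 3 and 4 were below every vehicle library, and DMOG replicate 2 lay between the vehicle libraries. Over 6 libraries the mean was 15.9 ± 1.97 RPKM with DMOG and 31.0 ± 0.741 RPKM with vehicle (SD, n = 3 each), and the log2 fold change was -0.64 ± 0.12 after median-ratio scaling (adjusted p = 0.0117), and it was not called without vehicle replicate 1 (adjusted p = 0.0517). Over 8 libraries it was -0.65 (adjusted p = 0.0879). In the authors' deposited table the log2 fold change was -0.66 with an adjusted p of 0.000104.

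INSR, the insulin receptor, was low, at 0.854, 0.494, 0.475 and 1.44 RPKM with DMOG, against 0.584, 0.685, 0.730 and 0.570 RPKM with vehicle. DMOG replicates 1 and 4 were above every vehicle library, and DMOG replicates 2 and 3 below every one. With 139 to 409 reads per library with DMOG and 173 to 264 with vehicle, limma-voom on recovered reads gave a log2 fold change of 0.70 ± 0.42 over 6 libraries (adjusted p = 0.238) and 0.19 ± 0.34 over 8 (adjusted p = 0.723). The authors' deposited table gives 0.89 with an adjusted p of 0.0851.

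Ratios within a library do not depend on its scaling. IGF2R was 0.765, 2.38, 1.26 and 0.757 times IGF1R in RPKM with DMOG, against 2.77, 2.37, 3.20 and 2.78 times with vehicle. DMOG replicate 2 was level with the lowest vehicle library, and the other 3 DMOG libraries were below all 4. The difference in the log2 ratio was -1.27 over 8 libraries (exact two-sided permutation p = 0.0571) and -1.69 over 6 (exact permutation p = 0.1, the smallest possible). INSR was 0.0472, 0.0424, 0.0336 and 0.0680 times IGF1R with DMOG, against 0.0528, 0.0678, 0.0734 and 0.0520 times with vehicle. These groups overlap, with a log2 difference of -0.40 over 8 libraries (exact permutation p = 0.171) and -0.30 over 6 (exact permutation p = 0.4). Adjusted over the 3 measures formed within libraries (these ratios and the IGFBP3 share), the exact permutation p over 8 libraries was 0.171 for each.

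**Figure D3:**
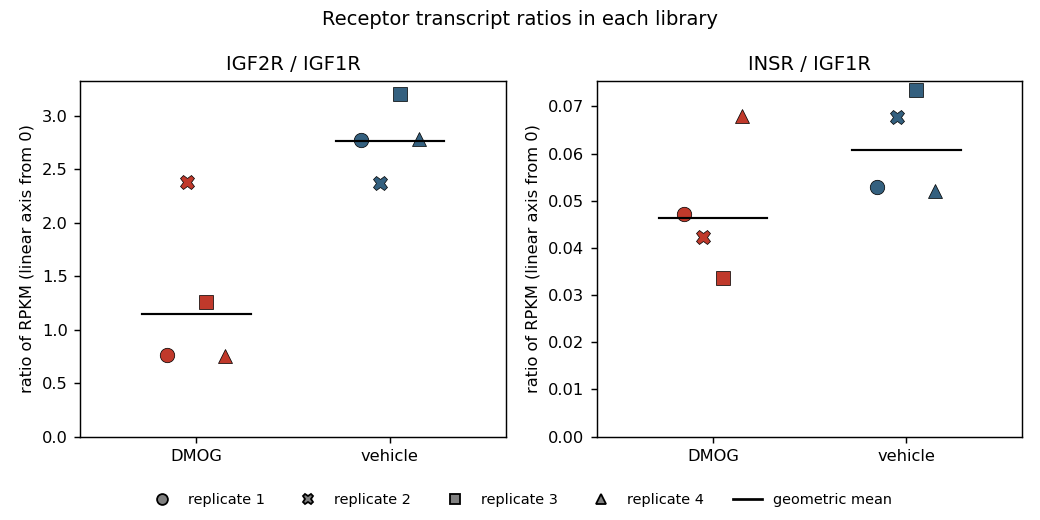
Ratio of IGF2R to IGF1R (left) and of INSR to IGF1R (right) in each library, in RPKM on linear axes from 0, DMOG left of vehicle. Marker shapes give the replicate number and lines the geometric mean. IGF2R is 0.757 to 1.26 times IGF1R in DMOG replicates 1, 3 and 4 and 2.37 to 3.20 times in the other 5 libraries.

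IRS1, on chromosome 2 at 227596033 to 227663506 on the minus strand, stood at 4.51, 6.31, 4.43 and 2.95 RPKM with DMOG, against 6.91, 4.88, 7.38 and 6.76 RPKM with vehicle. The 3 DMOG libraries of the smaller comparison were below every vehicle library. DMOG replicate 2 was above vehicle replicate 2, so the groups overlap over 8 libraries. The 6-library mean was 3.96 ± 0.877 RPKM with DMOG and 7.02 ± 0.323 RPKM with vehicle (SD, n = 3 each), and the log2 fold change of -0.45 ± 0.14 was just past the threshold (adjusted p = 0.0486). It was not called in 9 of the 14 alternatives, among them leaving out DMOG replicate 1 (adjusted p = 0.0812) or 4 (0.0679) or vehicle replicate 1 (0.126), 3 (0.136) or 4 (0.1099). Over the 14 the adjusted p ran from 0.0124 to 0.136. Over 8 libraries the log2 fold change was -0.45 with RPKM as deposited (adjusted p = 0.136), where the median of all genes stood at -0.18, and -0.28 with median-ratio factors (adjusted p = 0.244). The same factors over 8 libraries gave -0.44 for IGF2R and -0.27 for IGFBP7. For IRS1 the authors' deposited table lists -0.53 with an adjusted p of 0.0171. Between the 6 libraries, DMOG lay above vehicle throughout for IGFBP3 and IGF1R (9.99% of all genes tested did) and below throughout for IGFBP7, IGF2R and IRS1 (45.6% of all genes tested did), in RPKM as deposited.

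**Figure D4:**
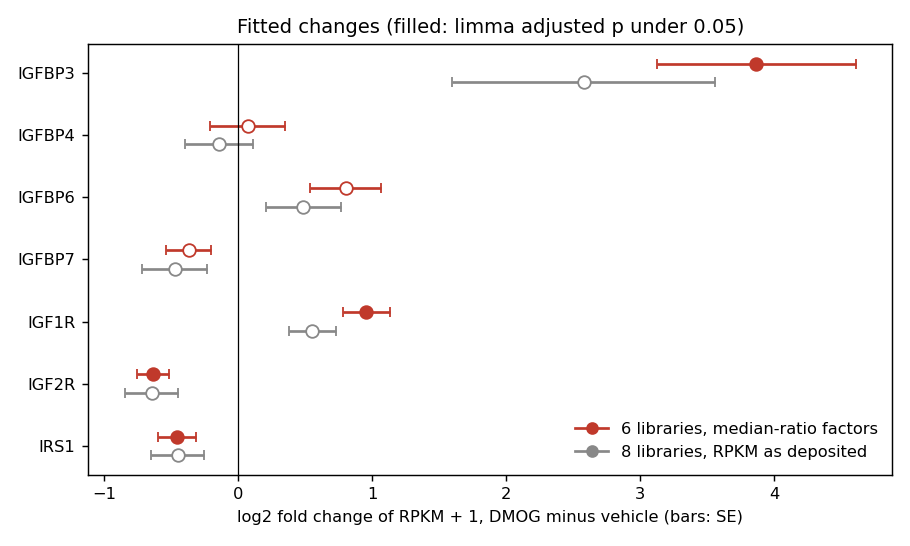
Log2 fold change of RPKM + 1, DMOG minus vehicle, with its SE, for the 7 IGF genes tested, over 6 libraries (red, median-ratio factors) and over 8 libraries (grey, RPKM as deposited). Filled points have a limma adjusted p under 0.05. IGFBP3 lies at 3.87 over 6 libraries and 2.58 over 8, IGF1R is the other gene called higher, IGF2R and IRS1 are called lower, and no point is filled over 8 libraries.

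In length-scaled level (mean RPKM), the vehicle cultures ranked IGFBP7 (48.0), IGF2R (29.2), IGF1R (10.5), IRS1 (6.48), IGFBP4 (5.75), IGFBP3 (3.69), IGFBP6 (1.81), INSR (0.642), IGFBP2 (0.470) and IGFBP5 (0.00573). Each of the first 3 ranges was apart from the next gene's, as was that of IGFBP2 from IGFBP5, and the neighbours between IRS1 and IGFBP2 overlapped. In DMOG replicates 1, 3 and 4 IGFBP3 came first at 72.2 RPKM and IGFBP7 next at 28.9, with overlapping ranges. IGF1R (17.8) and IGF2R (15.9) followed with overlapping ranges, both apart from IGFBP7 above and IGFBP4 (4.81) below.

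The genes whose pattern over the 8 libraries was nearest to each called IGF gene, by root mean square difference in log2(RPKM + 1) from the vehicle mean, are given as a description. For IGFBP3 they were EGLN3 (0.460), a HIF prolyl hydroxylase that HIF itself induces, HK2 (0.602), a hexokinase, SLC6A8 (0.671), the creatine transporter, DEGS2 (0.736), a ceramide enzyme, and C10orf10 (0.799). For IGF1R they were MTUS1 (0.042), ARHGEF16 (0.060), the pyruvate kinase PKM (0.062), LYST (0.065) and NCS1 (0.066). Among the 5 nearest to IGF2R were ANKRD11 (0.044), the lysosomal chloride transporter CLCN7 (0.045) and the Wnt receptor FZD6 (0.070). For IRS1 they were KNOP1 (0.059), TMEM184C (0.062), GEMIN5 (0.065), CASC4 (0.067) and NTF4 (0.069). The measure grows with the size of the change, so distances are not comparable between these genes.

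Among the ligands IGF1, IGF2 and INS, only IGF2 had more than a few reads. In every library IGF2 was listed above INSR and below IGF1R and IGF2R. IGF1 had 0 to 3 reads in any library and INS was listed at 0 in all 8. IGF2 overlaps IGF2-AS and, over 20487 bases of the same strand, INS-IGF2, which was listed at 0. The IGF2 level may therefore be too low if reads shared by these genes were left uncounted. IGF2 was listed at 1.24, 0.645, 1.07 and 3.14 RPKM with DMOG, against 0.678, 0.763, 0.810 and 2.10 RPKM with vehicle. Both groups had their highest library in replicate 4, and they overlap (log2 fold change 0.52 over 6 libraries, adjusted p = 0.279, and 0.23 over 8, adjusted p = 0.593). With the replicate number as a block over 6 libraries its adjusted p was 0.0271.

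Of 23 listed ligands, other binding proteins and IGF-releasing proteases, 8 were tested and 2 were called over 6 libraries, both lower (median log2 fold change -0.21, against 0.00 over all genes tested). Of all genes tested, 13.7% were called higher and 16.1% lower. With the replicate block, where 40.6% of all genes tested were called, 3 of the 8 were called higher and 4 lower. STC2, a secreted inhibitor of the PAPPA proteases, was listed at 1.39, 39.4, 3.92 and 0.713 RPKM with DMOG, against 38.5, 30.0, 17.9 and 39.2 RPKM with vehicle. It fell by 3.28 on the log2 scale over 6 libraries (SE 0.43, adjusted p = 0.0053), with DMOG replicate 2 again at the vehicle level. PAPPA2, a protease that cleaves IGFBP3 and IGFBP5, was the other, at 0.780, 2.53, 0.0965 and 0.383 RPKM with DMOG against 2.62, 1.14, 1.22 and 2.09 RPKM with vehicle (log2 fold change -0.92, adjusted p = 0.0283). Over 8 libraries the log2 fold change was -2.54 for STC2 (adjusted p = 0.0889) and -0.62 for PAPPA2 (adjusted p = 0.215). The IGFBP protease HTRA1 (0.47) had an adjusted p of 0.0151 with the block and 0.0983 without it, ADAMTS1 (1.25) of 0.0332 with it and 0.130 without, and CRIM1 (-0.65) of 0.0130 with it and 0.0578 without.

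In the receptor-proximal list, 5 of 23 genes tested were called higher and 4 lower over 6 libraries, with a median of 0.00. Over all genes tested these shares were 13.7% and 16.1%. SOCS1, a suppressor that also binds insulin and IGF receptors, was listed at 25.8, 10.8, 15.2 and 29.7 RPKM with DMOG, against 8.52, 6.67, 7.35 and 10.2 RPKM with vehicle. Every DMOG library was above every vehicle library, though DMOG replicate 2 only narrowly, an order over 8 libraries that 2.27% of all genes tested shared. Over 6 libraries SOCS1 rose by 1.58 ± 0.26 on the log2 scale (adjusted p = 0.0089). The others called higher were the adaptors GAB1 (0.55) and GRB7 (0.48), the exchange factor SOS1 (0.41) and the receptor phosphatase PTPRF (0.60). Called lower were GRB10 (-0.44), an adaptor that restrains the insulin and IGF receptors, the phosphatases PTPN2 (-0.50) and PTPN11 (-0.65), and SOCS7 (-0.59). With RPKM as deposited, where the median of all genes stood at -0.26, 1 was called higher and 7 lower (6.13% and 34.5% of all genes tested). With the replicate block 7 were called higher and 5 lower, where 40.6% of all genes tested were called either way. For SOCS1 the fit over 8 libraries gave 1.128 (adjusted p = 0.0879). IRS2, the second main adaptor, was not called (-0.34, adjusted p = 0.367).

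Of the PI3K-AKT-FOXO list, 4 of 31 genes tested were called higher and 7 lower over 6 libraries, with a median of 0.07, 2 and 9 with RPKM as deposited, and 5 and 8 with the replicate block. Of all genes tested, 13.7% were called higher and 16.1% lower, 6.13% and 34.5% with RPKM as deposited, and 40.6% either way with the block. Among those higher were the catalytic subunit PIK3CD (0.86), FOXO3 (0.63) and the phosphatase INPPL1 (0.50), while the kinase AKT1 was not called (0.22, adjusted p = 0.176). Lower were MTOR (-0.61), its partners RPTOR (-0.67) and MLST8 (-0.46), its activator RHEB (-0.46), its inhibitor AKT1S1 (-0.54) and its target EIF4EBP1 (-0.42). TRIB3, a pseudokinase that binds AKT and is induced by the ATF4 stress pathway, was listed at 22.1, 240, 45.1 and 35.1 RPKM with DMOG, against 241, 264, 173 and 268 RPKM with vehicle. DMOG replicate 2 was within the vehicle range and the other DMOG libraries far below it. Over 6 libraries TRIB3 fell by 2.43 on the log2 scale (SE 0.27, adjusted p = 0.0042), and over 8 the log2 fold change was -2.08 (adjusted p = 0.0879).

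Among genes known as FOXO targets, 3 of 12 tested were called higher and 1 lower over 6 libraries (median 0.37), 2 and 2 with RPKM as deposited, and 5 and 1 with the replicate block. The shares of all genes tested were 13.7% and 16.1%, 6.13% and 34.5% with RPKM as deposited, and 40.6% either way with the block. CCNG2, a cyclin that slows the cell cycle, was listed at 23.0, 10.9, 25.8 and 23.6 RPKM with DMOG, against 11.3, 13.2, 14.6 and 9.33 RPKM with vehicle. DMOG replicates 1, 3 and 4 were all above the vehicle libraries, and over 6 libraries CCNG2 rose by 1.28 ± 0.17 on the log2 scale (adjusted p = 0.0058). Over 8 the log2 fold change was 0.69 (adjusted p = 0.104). TXNIP (0.84), an inhibitor of glucose uptake, and the receptor ERBB3 (0.66) were the others called higher, and SOD2 (-0.58), the mitochondrial superoxide dismutase, was called lower. Neither of the IGF2 mRNA-binding proteins tested, IGF2BP2 and IGF2BP3, was called over 6 libraries, and with the replicate block IGF2BP2 was (0.31, adjusted p = 0.0442). Of 10 HIF-induced genes listed to check the treatment, 9 were called higher over 6 libraries, against 13.7% of all genes tested. Those 6 libraries leave out DMOG replicate 2, which had low CA9, a gene of this list, so this is no independent check. Over 8 libraries no gene of any of these lists was called. Of the 26 genes of the signalling, ligand and FOXO lists called over 6 libraries, 8 were called whichever library was left out (STC2, SOCS1, PTPN11, PIK3CD, AKT1S1, TRIB3, CCNG2 and ERBB3), while 17 were not called without DMOG replicate 1, 18 without vehicle replicate 1, 12 without vehicle replicate 3, 16 without vehicle replicate 4, 2 without DMOG replicate 3 and 3 without DMOG replicate 4.

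**Figure D5:**
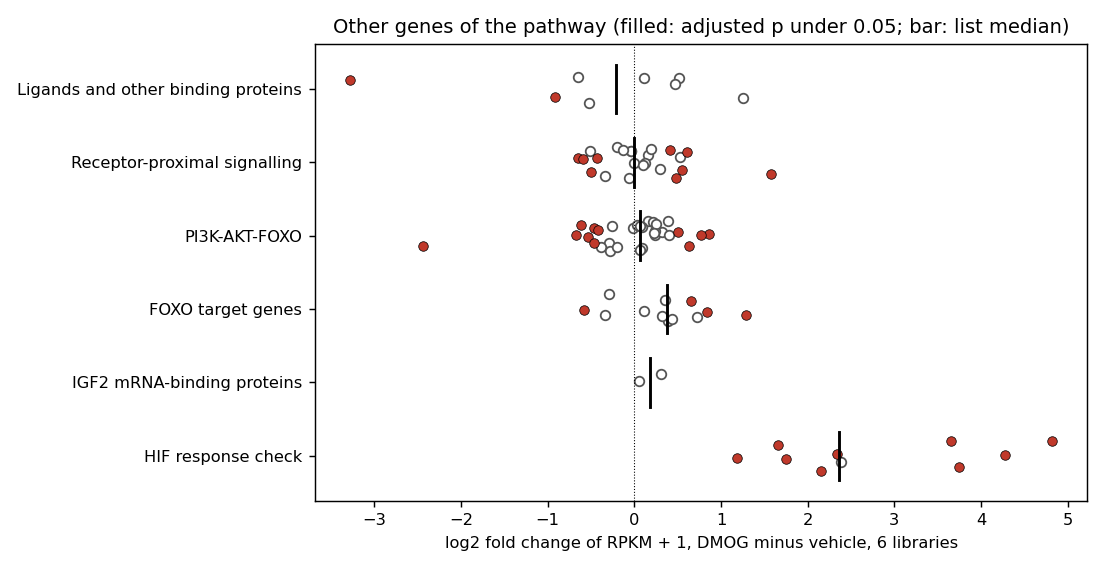
Log2 fold change of RPKM + 1, DMOG minus vehicle, over 6 libraries for the tested genes of each pathway list, 1 point a gene, spread vertically only for legibility. Filled points have a limma adjusted p under 0.05 and bars give the list's median. The signalling lists lie around 0 with calls either way, STC2 (-3.28) and TRIB3 (-2.43) lie farthest to the left, and the HIF-induced genes lie to the right.

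Since these are bulk cultures, fewer cells of a type and less RNA per cell cannot be told apart. Basal keratinocyte markers summed to 12510 to 14807 RPKM with DMOG and 9086 to 17515 RPKM with vehicle, with the highest value in vehicle replicate 2. Within replicates 1, 3 and 4 the basal sum was 14719, 12510 and 14807 RPKM with DMOG, against 12151, 9086 and 10235 RPKM with vehicle, so it was higher in each of these DMOG libraries than in any of these vehicle libraries. KRT5 and KRT14 made up most of that sum, and its genes did not move together. In these libraries KRT14, ITGA6 and ITGB4 were higher with DMOG throughout, while KRT5, KRT15, COL17A1 and LAMB3 overlapped. TP63 was lower throughout, at 36.5, 42.1 and 39.0 RPKM with DMOG against 57.3, 54.9 and 64.6 RPKM with vehicle. Suprabasal markers summed to 8068, 12056 and 7258 RPKM in DMOG replicates 1, 3 and 4, against 7962, 9770 and 8779 RPKM in vehicle replicates 1, 3 and 4, which overlap. Fibroblasts, a rich source of IGFBPs in tissue, were checked by 8 markers. Only COL1A1 reached 1 RPKM in at least 4 libraries, the summed markers were 19.0 to 31.99 RPKM with DMOG and 8.77 to 14.1 RPKM with vehicle, and DCN and LUM were listed at 0 in all 8. Endothelial markers summed to 1.22 to 2.45 RPKM with DMOG and 2.02 to 2.61 RPKM with vehicle, with CDH5 at 0. The part of the basal marker and COL1A1 differences in these results was not tested.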

How the data were processed

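RNA sequencing gave 4 DMOG and 4 vehicle libraries of EPC2-hTERT cells, grouped by the treatment in the labels. Nothing in the labels says that the replicates came from separate cultures, so the spread behind each p-value may be technical. The authors deposited RPKM for each gene and library, although the table's name speaks of counts. The aligner TopHat2 2.0.13 and the read counter HTSeq 0.6.1 are among the tools in the submitters' processing notes, which give no roles and name both hg19 and hg38. Positions in the RPKM table are on hg19. Multiplying RPKM by gene length gave whole reads for 100% of values within 0.01 reads, and a count of 0 allows up to 3 reads by counting error alone.

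A second table, of the authors' own comparison, gives normalized means per group (a signal scale), their ratio and its log2, and raw and adjusted p-values, per the file headers. Its means were recovered from replicates 1, 3 and 4 of each group, with weights of 0 for replicate 2, and the reason is not stated in the sources. That choice may rest on the values themselves, which p-values over 6 libraries do not allow for.

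The test was limma-trend (limma 3.58.1, R 4.3.3, robust, two-sided, Benjamini-Hochberg over all genes tested, threshold 0.05) on log2(RPKM + 1), for genes at 1 RPKM or more in at least 4 libraries. RPKM entered as deposited over 8 libraries and divided by median-ratio factors over 6. Alternatives were pseudocounts of 0.1 and 0.01, no filter, other scaling, limma-voom on recovered reads, each library left out, and a replicate block. A voom filter of 10 reads was added after seeing the data. The script was tested on simulated data. Shares and ratios were compared by exact permutation (scipy 1.17.1). Deviations of same-numbered libraries from their group means correlated at 0.466, 0.397 and 0.341 for numbers 1, 3 and 4 over 6 libraries, after median-ratio scaling. Each of these libraries correlated best with its own number, so the numbers may pair those samples. Over 8 libraries, with RPKM as deposited, the correlations for numbers 1 to 4 were 0.07, -0.02, 0.53 and 0.24. Numbers 3 and 4 were again best matched to their own number, while number 1 matched number 2 best and the reverse. The group means there include DMOG replicate 2, so this check cannot settle whether the numbers pair all samples.

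The IGF genes and gene lists were chosen with earlier results of these data known. Every IGF gene is named, along with the IGF ligands, IGFBP1 and pathway genes called over 6 libraries with a log2 fold change of at least 1 either way. Other pathway genes were named after their values were seen, and a few genes that these rules or counts include are not reported here. Of the listed genes, RACK1 was not matched in the RPKM table. IGFBP7 had no promoter sequence in the RefSeq table.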

Additional observations from a re-analysis of the deposited data

Results flagged for a closer look

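In each group of 4 libraries, the gap of the highest and of the lowest library to its neighbour was compared with the group's range, by Dixon's critical values. Of the 26 groups examined, 2 held such a library, and chance alone marks about 1 in 20 groups. IGFBP3 was 12.9% of the summed binding protein RPKM in vehicle replicate 3, apart from 3.83 to 5.28% in the other 3 vehicle libraries. IGFBP5 stood at 0.00941 RPKM in vehicle replicate 4, apart from the other 3 vehicle libraries, but this is 2 reads against 1 read in each of the others.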

How the results depend on the processing

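Over 8 libraries, leaving out each library in turn gave 0 to 747 genes called higher and 0 to 3585 lower, with 0 to 2 IGF genes higher and 0 to 3 lower, and the calls appeared only without DMOG replicate 2. The replicate block over 8 libraries gave 0 calls. Over 6 libraries, RPKM as deposited gave 682 genes higher and 3836 lower, against 1526 and 1792 with median-ratio factors. Leaving out 1 library gave 379 to 2224 higher and 539 to 2527 lower, with fewer calls by over 1.5 times without DMOG replicate 1 or vehicle replicate 1, 3 or 4. Among the IGF genes this gave 1 to 3 higher and 0 to 2 lower. Pseudocounts of 0.1 or 0.01, no filter, and upper-quartile factors each left 1 IGF gene called lower. With the replicate block over 6 libraries, 2181 genes were called higher and 2337 lower, and 3 IGF genes were called in each direction, as IGFBP6 and IGFBP7 passed the threshold. The block changed no other IGF call. IGFBP4 changed sign over 8 libraries to 0.033 with median-ratio factors and 0.052 with upper-quartile factors, and leaving out each library gave -0.31 to 0.021 (positive without DMOG replicate 3). Over 6 libraries it changed sign to -0.18 with RPKM as deposited, and leaving out each library gave -0.23 to 0.28 (negative without DMOG replicate 1 or vehicle replicate 3). IGF2 over 8 libraries ran between -0.038, without DMOG replicate 4, and 0.44, without vehicle replicate 4. The cause of these shifts was not tested. IGFBP3's share of binding protein RPKM differed by 25.8 to 51.4 percentage points when each library was left out, and paired by number gave an exact permutation p of 0.25. Of the pathway genes with a log2 fold change of at least 1 over 6 libraries, STC2, SOCS1, TRIB3 and CCNG2 were called in all 14 alternatives. Of the smaller changes, GRB7, GAB1, SOS1, PTPRF, INPPL1, FOXO3 and TXNIP were not called with RPKM as deposited, and PAPPA2 was not called in 5 of 14 alternatives. Of the IGF genes, IGFBP2 and IGFBP5 had the fewest reads, which limits what can be said of them.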
